A study of Rattus norvegicus with 25 samples.

Results

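The genes of the cytosolic ribosomal proteins were examined in the striatum of adolescent rats from 3 gestational conditions. They were taken as every gene with a probe set whose single annotated symbol is that of a ribosomal protein (Rpl, Rps, Rplp or Rpsa followed only by its number and letter), which leaves out kinases such as those of the Rps6ka family, and each gene was represented by its probe set with the highest mean over all 25 arrays. This gave 68 genes, 26 of the small subunit, 39 of the large subunit and 3 of the stalk, out of 14506 genes with a probe set of 1 symbol. They carried 249 probe sets between them. Of the 68 genes, 67 had a mean signal in the upper part of the array, split at the middle probe set, and entered the tests. The exception was Rps27, with a mean of 5.69 log2 units against a threshold of 6.97 (5.02 to 6.06 in Con, 5.65 to 6.11 in Nic and 5.29 to 5.89 in Con-Pf).

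The rats were male Lister Hooded offspring killed at postnatal day (PND) 35 to 42, and 1 Affymetrix rat gene 1.0st array was run on the striatal RNA of each. The mothers of the 8 Con animals ate and drank tap water without limit,  those of the 7 Nic animals drank nicotine solution before and during pregnancy, and those of the 10 Con-Pf animals were pair-fed and received no nicotine and only as much food as the nicotine dams had eaten the day before. The offspring were not treated themselves, and all values are RMA log2 signals. Con-Pf 9 and Con-Pf 10 are titled as Con-Pf but described in the labels as control striatum. The final tally in the study's methods counts more Con and fewer Con-Pf arrays than the titles do. The starting numbers in the same methods, less the arrays removed, match the titles. Con-Pf 9 and Con-Pf 10 were kept as Con-Pf here. The values with both left out, or with both counted as Con, are given where they bear on a result. The labels do not give the litter of each animal, so the p-values measure the spread between animals, some of which may be siblings.

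A ribosome joins a small subunit, which reads the mRNA, to a large subunit, which forms the peptide bonds, and each subunit is built of ribosomal RNA and a fixed set of proteins. The cell makes these proteins in matching amounts, and their mRNAs are short, very abundant and often used as stable references. Most begin with a C followed by a run of pyrimidines, the 5′ TOP (terminal oligopyrimidine) tract, through which mTOR signalling sets how strongly they are translated. In neurons local ribosomes also supply protein to dendrites and axons.

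The start of the transcript was read first, since it is a feature that the choice of genes did not use. RefSeq promoter sequences of build GRCr8 were found for 58 of the 68 genes. A C followed by at least 4 pyrimidines (C or T), with the C within 10 bases of the annotated start on the transcribed strand, was present in 44 of the 58 (75.9%) and in 28.8% of all 27457 promoters. With the C required to be the annotated start itself, the counts were 23 of 58 (39.7%) and 2.63% of all promoters. The letters CTTTCC were found on the transcribed strand within 20 bases of the start in 17 of the 58 (29.3%) against 1.83% of all promoters, and on the other strand in 1 of the 58 (1.72%) against 1.81%. CTTTCC can overlap the pyrimidine tract, and where a tract was absent the annotated start may differ from the start used in striatum, so an absent match says only that these letters are not in the window. The 10 sequences below are those of members that the results turn on. They run 5′ to 3′ from 10 bases before the annotated start, so that base 11 is the start, and the capitals run from the C nearest the annotated start that at least 4 pyrimidines follow to the end of that pyrimidine run, which in some genes also extends upstream in lower case.
Rps21 (chr3:187724028-187724057, plus strand): agccacttcCTTTCTgtgttctccgtagac
Rps28 (chr7:15311314-15311343, minus strand): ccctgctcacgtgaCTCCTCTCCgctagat
Rpl39 (chrX:121195877-121195906, minus strand): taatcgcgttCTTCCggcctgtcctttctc
Rpl38 (chr10:100200425-100200454, plus strand): ttCTTTTTCCgttgttcggtgctcgctcct
Rpl37a (chr9:81748081-81748110, plus strand): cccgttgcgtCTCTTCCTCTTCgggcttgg
Rpl18 (chr1:105325260-105325289, plus strand): acctggtctagcaggaggcgccatcatggt
Rpl19 (chr10:83519054-83519083, plus strand): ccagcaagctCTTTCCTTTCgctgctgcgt
Rplp1 (chr8:71290853-71290882, minus strand): cgcatgtgatCCTTTCCTCagctgccgcca
Rpl4 (chr8:73566467-73566496, plus strand): tcttcCTTTTCCTgtgggagcagccgggta
Rpl3 (chr7:113507971-113508000, minus strand): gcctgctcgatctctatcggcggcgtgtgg
The marked run starts at the annotated start in Rpl39, Rpl37a, Rpl19 and Rplp1, and a few bases before or after it in Rps21, Rps28, Rpl38 and Rpl4. Rpl18 and Rpl3 hold none near their annotated starts.

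Facts of the arrays as a whole come first because they bear on every value that follows. On the first principal component of all 14607 probe sets kept, which held 30.45% of the variance, Con 3 (score -25.2) and Con 5 (score -33.9) stood apart from the other 23 arrays. The main results are therefore given with and without these 2 arrays. The study's supplement reports that 1 sample of low RNA integrity was kept and does not name it, so whether it is one of these arrays cannot be told, and the part of RNA integrity was not tested. Of the 12 markers of striatal projection neurons, 10 passed the filter, and their mean per array lay between -0.12 and 0.09 around the mean over all arrays, with Con 3 at 0.005 and Con 5 at -0.06.

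The ribosomal protein genes moved together from animal to animal, and most of that movement was inside the Con group. The mean of the 67 genes on an array, each taken relative to its own mean over the 25 arrays, was -0.16 on Con 1, -0.01 on Con 2, -0.35 on Con 3, 0.05 on Con 4, -0.46 on Con 5, 0.13 on Con 6, 0.16 on Con 7 and -0.05 on Con 8. Nic ran from -0.08 to 0.08 (median 0.06) over 7 arrays, and Con-Pf from -0.11 to 0.13 (median 0.05) over 10. Con 5 and Con 3 were thus the lowest arrays of all and Con 7 the highest, and the whole range of both other groups fell inside that of Con. The SD of this mean between animals was 0.22 in Con (n = 8), 0.05 in Nic (n = 7) and 0.07 in Con-Pf (n = 10). It was 0.12 in Con when Con 3 and Con 5 were left out. In whole striatum a smaller amount of these mRNAs per cell and a smaller share of the cells that hold most of them cannot be told apart.

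Both subunits and the stalk took part to a like degree. On Con 5 the mean was -0.51 for the 25 small subunit genes, -0.43 for the 39 large subunit genes and -0.46 for the 3 stalk genes, and on Con 3 it was -0.39, -0.33 and -0.30. On Con 7 it was 0.16, 0.17 and 0.15.

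**Figure D1:**
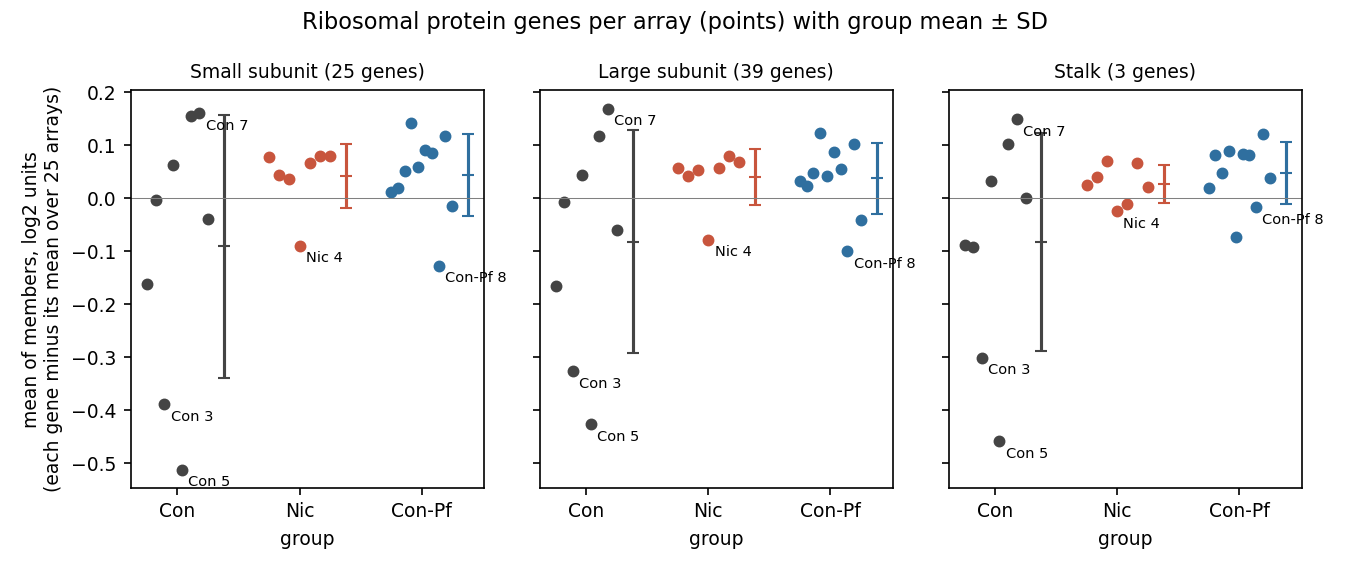
Mean of the small subunit, large subunit and stalk genes on each array, in log2 units relative to each gene's mean over the 25 arrays (vertical axis), by group (horizontal axis), with 1 point per array and the group mean ± SD beside it. Con 3 and Con 5 lie lowest in all 3 panels, at -0.39 and -0.51 for the small subunit, and Con spans the ranges of Nic and Con-Pf.

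Gene by gene, both Con 3 and Con 5 lay below all 6 other Con arrays in 58 of the 67 genes, against 24.6% of all probe sets. In no ribosomal protein gene did both lie above the 6 others, which happened in 17.9% of all probe sets. They were the 2 lowest of all 25 arrays in 53 of the 67 genes (18.4% of all probe sets), and Con 7 was the highest of the 25 in 23 genes (6.72%). These shares are a description, since genes on 1 array are not independent of each other.

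The depth of the drop differed from gene to gene. Rps21, a small subunit protein needed for the last steps of small subunit maturation, read 9.76, 10.22, 9.49, 10.24, 9.26, 10.42, 10.59 and 10.03 on Con 1 to Con 8. Con 3 and Con 5 were the lowest of its 25 values and Con 7 the highest. Rps28, which sits at the site where mRNA leaves the small subunit, read 10.6 on Con 3 and 10.49 on Con 5 and between 11.16 and 11.50 on the other Con arrays. Rpl38, a large subunit protein known for its part in translating Hox mRNAs, read 10.65 on both Con 3 and Con 5 and between 10.96 and 11.51 on the others. For each of the 3 genes the 2 arrays lay apart from the rest of the Con group.

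Rpl39, which lines the tunnel through which the new peptide leaves, read 11.79 on Con 3 and 11.47 on Con 5 and between 11.87 and 12.38 on the others. Rps6, the small subunit protein that S6 kinase phosphorylates downstream of mTOR, read 11.39 on Con 3 and 11.20 on Con 5 and between 11.60 and 11.92 on the others. Here too no other Con array reached down to the 2 low ones.

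In some other genes the drop was small. Rpl3, a core protein of the peptidyl transferase centre, read 11.34 on Con 3 and 11.27 on Con 5, and the other Con arrays lay between 11.29 and 11.47. Rpl4, whose long arm lines the exit tunnel, read 11.87 on Con 3 and 11.76 on Con 5. Its 6 other Con values lay between 11.92 and 12.04. Rps4x, the X-linked copy of a small subunit protein, ranged from 12.75 to 13.04 in Con. The 9 genes in which Con 3 and Con 5 were not both below the rest of the group were Rpl3, Rpl13, Rpl15, Rpl18, Rpl23, Rpl36a, Rpl41, Rps4x and Rps9, listed because they are few. The genes whose values are printed here are picked examples, and protein size was not compared with the drop. Rps3, a further example, fell about as far as Rpl38. It read 10.65 on Con 3 and 10.56 on Con 5 and between 11.18 and 11.52 on the other Con arrays. Transcript length was not measured here and its part was not tested.

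**Figure D2:**
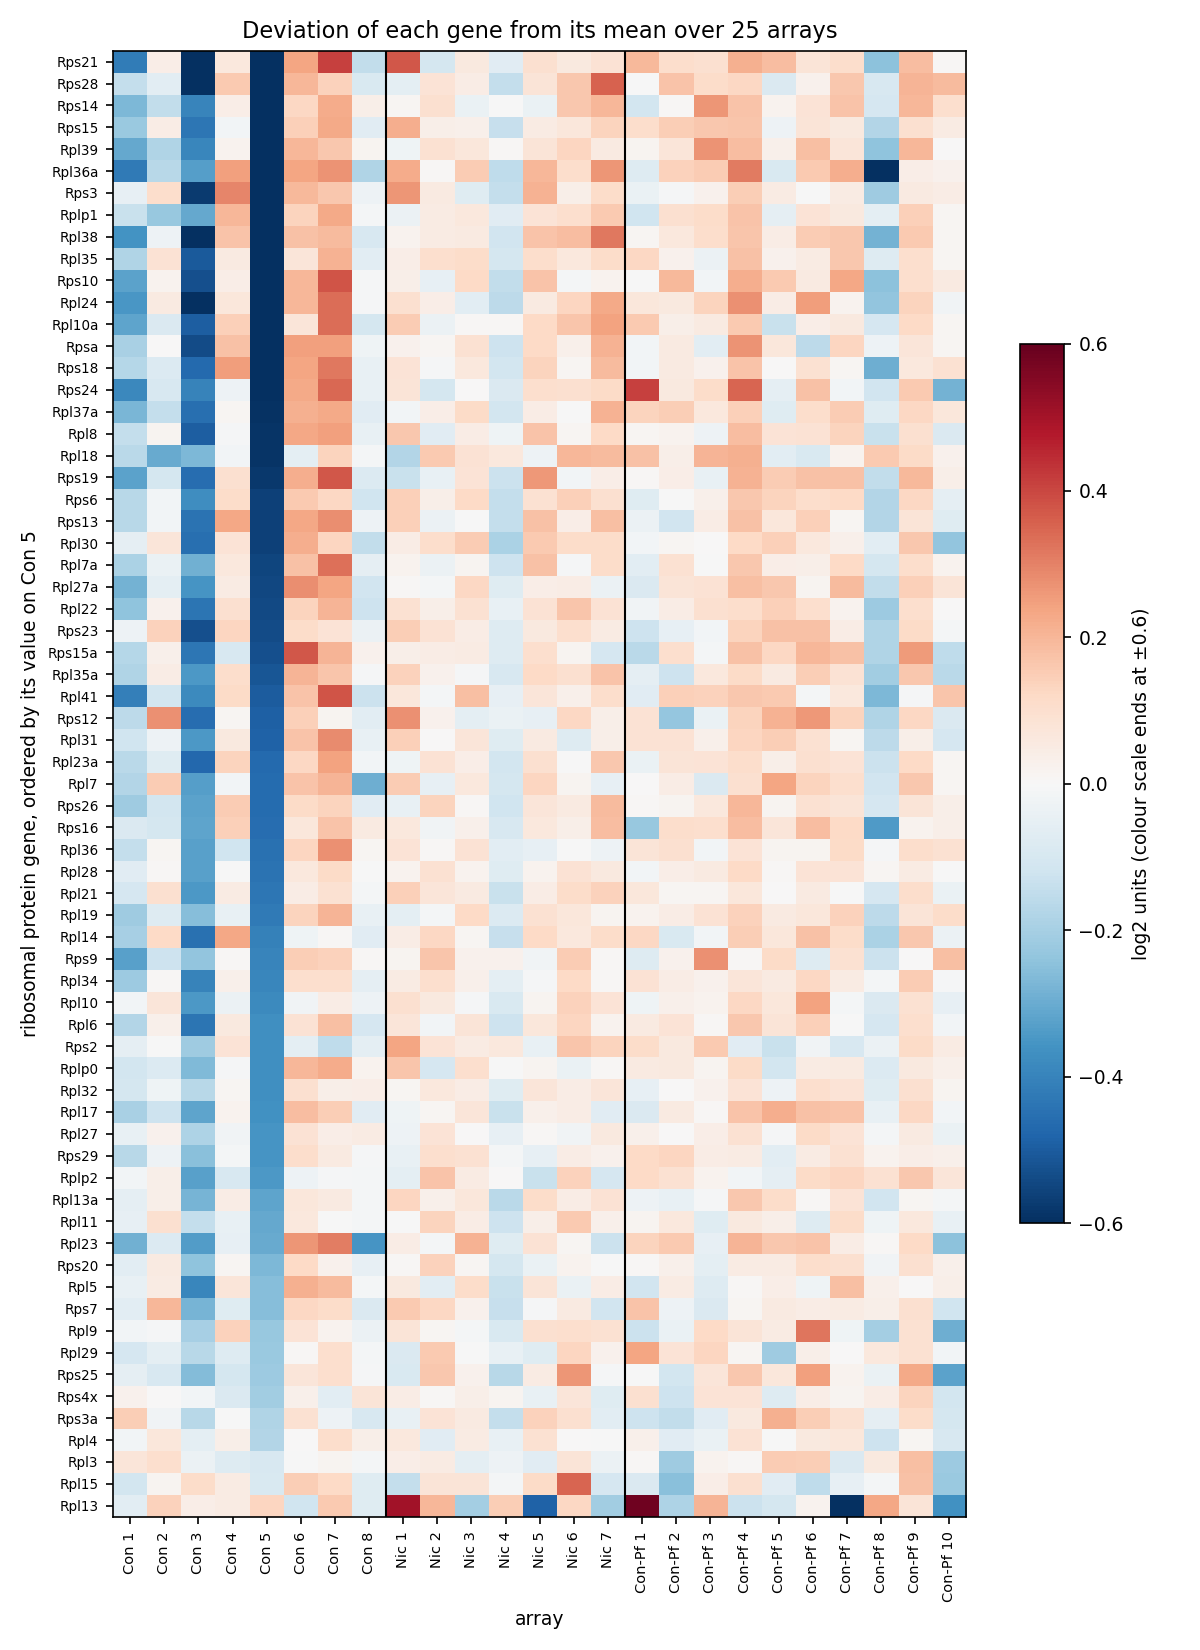
Deviation of each of the 67 genes (rows, ordered by their value on Con 5) from its mean over the 25 arrays (columns, by group), in log2 units, with blue for low and red for high values and a colour scale that ends at 0.6 in either direction. The columns of Con 3 and Con 5 are blue from Rps21 at the top down to the last few rows, where Rpl4, Rpl3, Rpl15 and Rpl13 show small deviations.

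The first comparison, Con-Pf against Con, asks what pair-feeding of the dams left behind in the offspring. The study names a possible interaction of undernutrition with the stress of imposed feeding as a limit that its design did not control. Of the 67 genes 64 had a higher mean in Con-Pf and 3 (Rpl4, Rpl13 and Rpl15) a lower one, but the differences were small and none passed the test. Their log2 fold changes had a median of 0.13, and ranged from -0.08 for Rpl15 to 0.27 for Rps21. The median over all 14607 probe sets was 0.015, and 55.8% of them were higher in Con-Pf.

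In limma, with Benjamini-Hochberg adjustment over all 14607 probe sets, 0 of the 67 genes were called at an adjusted p under 0.05, where 1.26% of all probe sets were. At an unadjusted p under 0.05 there were 24 genes, all of them higher in Con-Pf, against 22% of all probe sets and 14.2% in that direction. The smallest adjusted p was 0.0912, for Rpl18. Without Con 3 and Con 5 the median was 0.02, 44 of the 67 genes were higher (55.2% of all probe sets) and 2 genes, Rpl18 and Rplp2, were left at an unadjusted p under 0.05, where 8.1% of all probe sets were. The methods' t-test, with the variance pooled over the groups compared, put 6 of the 67 genes at an unadjusted p under 0.05 here, 2 in Nic against Con and 0 in Con-Pf against Nic, and the same test with unequal variances 2, 2 and 0. Both called 0 after Benjamini-Hochberg adjustment, and 0 genes met the methods' joint threshold on p and fold change. In limma, leaving out Con 5 alone gave a median of 0.08 with 6 genes at an unadjusted p under 0.05 (13% of all probe sets). Leaving out Con 3 alone gave 0.09 with 7 genes (13.5%). The number of such genes also moved with other arrays, as did the share of all probe sets. There were 12 without Con 1 (18.8%) or without Con-Pf 4 (19%), 14 without Con-Pf 9 (18.9%) and 16 without Con-Pf 2 (19.3%). There were 33 without Con-Pf 8 (24.6%), 39 without Con 7 (28.1%) and 40 without Con 6 (26%). Without Con-Pf 9 and Con-Pf 10 the median was 0.13 with 13 such genes (18.9%).

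Rpl18, a large subunit protein, came nearest to the threshold. Its lowest, median and highest values were 10.10, 10.58 and 10.83 in Con, 10.52, 10.78 and 10.89 in Nic, and 10.60, 10.77 and 10.90 in Con-Pf. The Con range reached down to the value of Con 5 and overlapped both other groups. The log2 fold change was 0.24 ± 0.07 (SE) in Con-Pf against Con, and it was 0.15 without Con 3 and Con 5 (adjusted p = 0.548 in limma). Rpl18 was also the single gene to pass when Con 7, its highest Con array, was left out (0.28, adjusted p = 0.0332 in limma).

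Rplp2 forms with Rplp1 the acidic stalk that recruits elongation factors, and Rplp0 anchors it to the large subunit. Rplp2 read from 11.95 to 12.33 in Con, with Con 3 and Con 5 at the lower end, and from 12.24 to 12.46 in Con-Pf. Its log2 fold change was 0.17 ± 0.05 (adjusted p = 0.0930 in limma) and was 0.09 without Con 3 and Con 5. Rplp1 differed by 0.14 and Rplp0 by 0.07, and these became 0.01 and -0.02 without the 2 arrays. Whether the stalk genes differed from each other was not tested.

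The other genes with the smallest p in this comparison were Rpl34 (0.16), Rps29 (0.13), Rpl17 (0.17), Rpl37a (0.21), Rpl39 (0.23) and Rps14 (0.23), a small subunit protein whose loss contributes to the anaemia of 5q deletions. Their adjusted p ran from 0.131 for Rpl34 to 0.171 for Rps14 in limma, and none passed. The largest difference of all, that of Rps21, was 0.27 ± 0.13 with a 95% confidence interval up to 0.53, and it was 0.06 without Con 3 and Con 5. Rps28 and Rpl38 went from 0.24 and 0.22 to 0.05 each. Rps21 and Rps28 shrank the most of the 67 genes when the 2 low Con arrays were left out. This follows from how far the 2 genes lay below the other Con arrays there and is not a separate result. Con 3 and Con 5 had the lowest means of the 67 genes, so leaving them out necessarily lowers the mean difference from Con.

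The second comparison, Nic against Con, sets nicotine together with the lower food and fluid intake of the nicotine dams against free feeding. It uses the same Con animals. Of the 67 genes 66 were higher in Nic and only Rpl13 was lower, with a median log2 fold change of 0.12 against 0.02 over all probe sets, of which 59.1% were higher. In limma 0 of the 67 were called, as were 0% of all 14607 probe sets. At an unadjusted p under 0.05 there were 11 genes, all higher in Nic, against 16.2% of all probe sets and 12.3% in that direction, and the smallest adjusted p was 0.268. Without Con 3 and Con 5 the median was 0.02, 43 genes were higher (62% of all probe sets) and 1 gene, Rps2, stood at an unadjusted p under 0.05 (4.65% of all probe sets). Without Con 5 alone the median was 0.07, and without Con 3 alone 0.08, each with 2 such genes (8.55% and 9.28% of all probe sets). There were 3 such genes without Con 1 (14.1%) or Nic 6 (10%), 4 without Nic 7 (13.6%) and 5 without Nic 2 (14%) or Nic 3 (13.4%). There were 7 without Nic 1 (18.5%) or Nic 5 (13.8%). Higher counts were 20 without Con 4 (21%), 22 without Nic 4 (16%), 27 without Con 6 (20.1%) and 32 without Con 7 (22%).

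Rps2, a small subunit protein at the mRNA entry site, had its lowest, median and highest values at 12.11, 12.42 and 12.55 in Con, at 12.43, 12.56 and 12.71 in Nic and at 12.34, 12.49 and 12.63 in Con-Pf. The Nic values began where the middle of the Con values lay, and the groups overlapped. Its log2 fold change was 0.20 ± 0.06 in Nic against Con (adjusted p = 0.268 in limma) and 0.14 without Con 3 and Con 5. The other genes with the smallest p were Rpl18 (0.23), Rpl10a (0.23), Rpl38 (0.26), Rpl22 (0.18), Rpl34 (0.14), Rpl39 (0.21) and Rps6 (0.18). Of these, Rpl22 is known also for its part in the development of T cells. Rps6 ranged from 11.62 to 11.91 in Nic and from 11.20 to 11.92 in Con, so that the highest Nic value did not exceed the highest Con value.

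**Figure D3:**
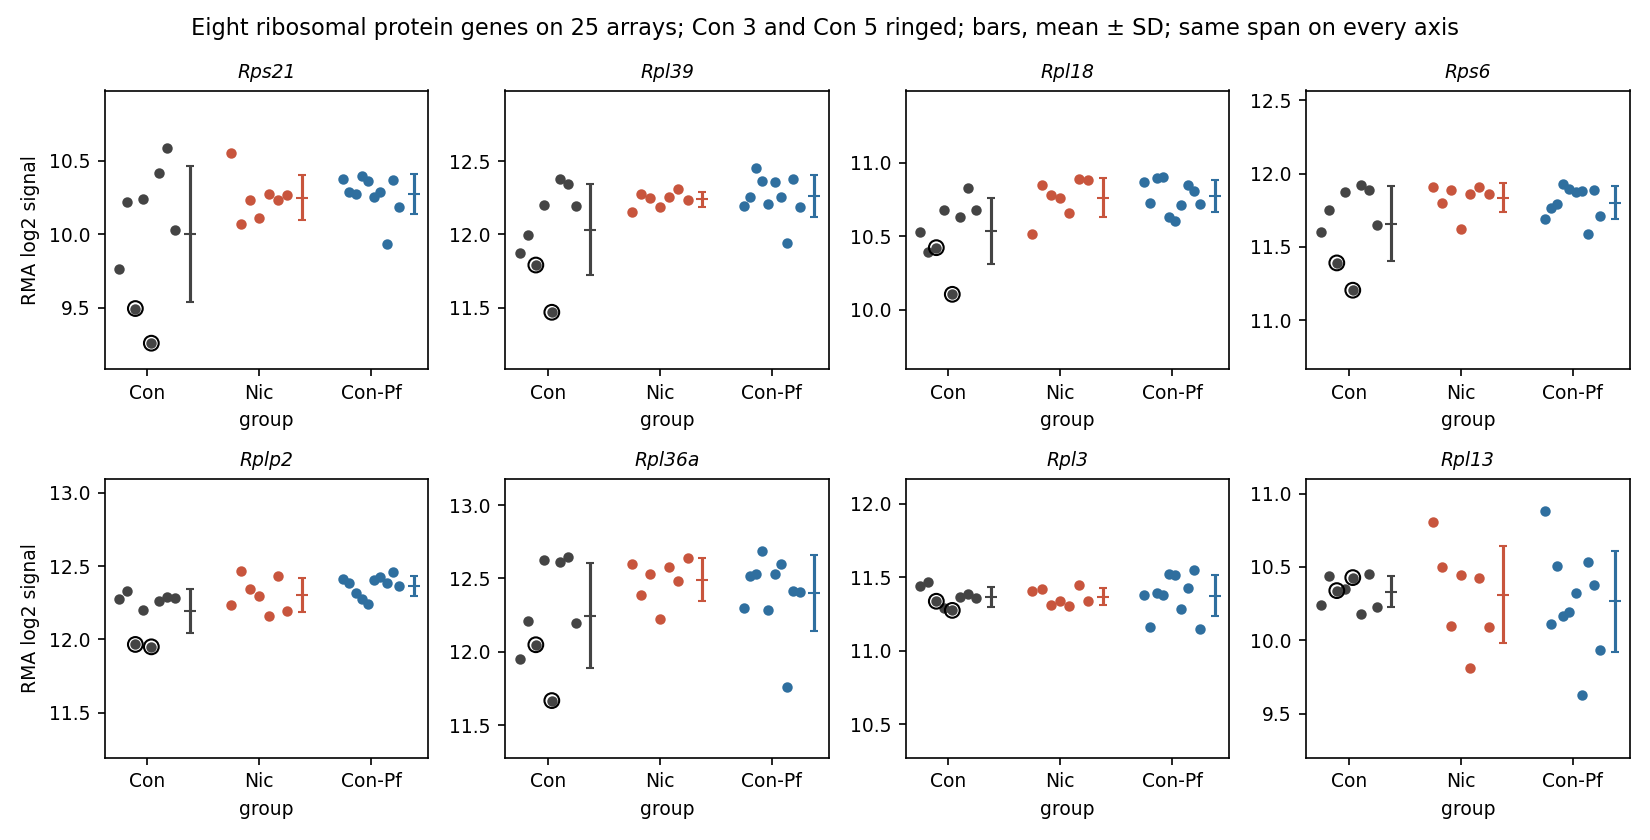
RMA log2 signal (vertical axis, the same span in every panel) of 8 ribosomal protein genes on the 25 arrays by group (horizontal axis), with 1 point per array, the group mean ± SD, and rings around Con 3 and Con 5. The ringed points lie lowest in Rps21, Rpl39, Rps6 and Rplp2, and within the other Con values in Rpl13, where Nic and Con-Pf spread more widely than Con.

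The third comparison sets Con-Pf against Nic, whose dams were matched for food, so that nicotine is the planned difference. The study reports that the nicotine dams also drank less than the pair-fed dams. This comparison leaves out the Con animals, though all 3 comparisons share groups pairwise. Here 35 of the 67 genes were higher in Con-Pf and 32 lower. The median log2 fold change was 0.005, against -0.008 over all probe sets, and the range ran from -0.11 for Rpl15 to 0.09 for Rpl17. None of the 67 was called in limma (0.185% of all probe sets), the smallest adjusted p was 0.999, and 0 reached an unadjusted p under 0.05, where 4.36% of all probe sets did. The 95% confidence intervals of single genes lay between -0.34 and 0.29, so differences up to that size could not be told from none with 10 and 7 animals. With Con-Pf minus Nic the genes of smallest p were Rpl15 (-0.11), Rps2 (-0.08), Rpl17 (0.09), Rplp2 (0.06), Rps19 (0.07), Rpl36 (0.05), Rps20 (0.03) and Rpl36a (-0.09). Rps19, the gene most often mutated in Diamond-Blackfan anaemia, ranged from 9.69 to 10.04 in Con-Pf and from 9.70 to 10.10 in Nic.

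In none of the 67 genes were all values of one group above those of another. Over all probe sets this happened in 0.274% for Con-Pf against Con, in 0.0274% for Nic against Con and in 0.0822% for Con-Pf against Nic.

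**Figure D4:**
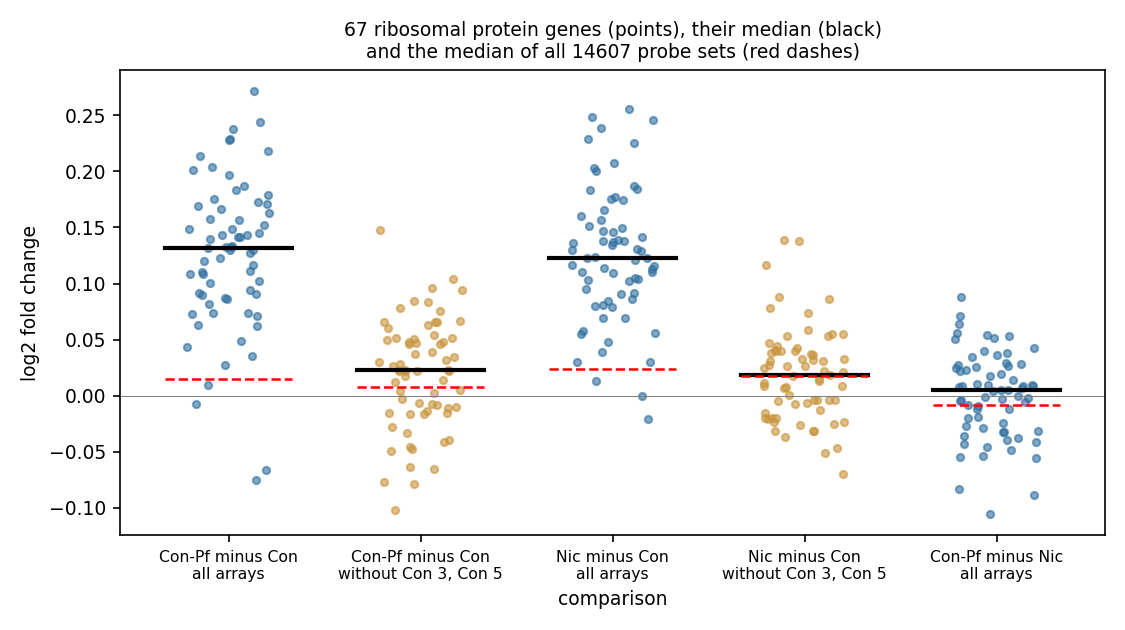
Log2 fold change (vertical axis) of each of the 67 genes (points) in the 3 comparisons (horizontal axis), with all arrays in blue and without Con 3 and Con 5 in ochre, the median of the genes as a black bar and that of all 14607 probe sets as a red dashed bar. The medians of 0.13 and 0.12 against Con move to 0.02 without the 2 arrays, and that of Con-Pf against Nic is 0.005.

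By function the groups of ribosomal proteins resembled each other. The 25 small subunit genes had a median of 0.13 in Con-Pf against Con and of 0.13 in Nic against Con, and the 39 large subunit genes 0.13 and 0.12. When Con 3 and Con 5 were left out these were 0.02 and 0.007 for the small subunit and 0.02 and 0.02 for the large. Rpl5, Rpl11 and Rpl23 bind Mdm2, Rpl5 and Rpl11 as a particle with 5S RNA, and so link ribosome assembly to p53. Rpl11 and Rpl23 differed by 0.06 and 0.18, and Rpl5 by less than either, in Con-Pf against Con, with no call. The 15 measured genes of Diamond-Blackfan anaemia, in which ribosomal protein genes carry mutations, had a median of 0.13 in Con-Pf against Con and of 0.02 without the 2 arrays. Rpsa, a small subunit protein also known as a laminin receptor, differed by 0.12, and Rpl10, which matures the large subunit in the cytoplasm, by 0.13. Without the 2 arrays the mean of Rpsa was slightly lower in Con-Pf than in Con, and the difference of Rpl10 was smaller. Rps3, a small subunit protein that also acts in DNA repair, differed by 0.08 and by -0.10 without the 2 arrays.

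Several members are common reference genes of quantitative PCR. Over the 9 measured (Rplp0, Rpl13a, Rps18, Rpl19, Rpl32, Rpl4, Rpl27, Rpl30 and Rps29) the median log2 fold change was 0.09 in Con-Pf against Con and 0.10 in Nic against Con, with no call in limma. They were -0.006 (4 of the 9 higher) and 0.02 (5 of 9) when Con 3 and Con 5 were left out. Rpl13a read from 11.18 to 11.56 in Con, Rpl32 from 12.72 to 13.18 and Rps18 from 9.91 to 10.83. Rpl19 had an SD of 0.20 in Con, 0.08 in Nic and 0.09 in Con-Pf. Rps18 was the most variable of these 3 genes in Con, with an SD of 0.34, against 0.15 for both Rpl13a and Rpl32. The 15 reference genes outside the ribosome that were measured, Gapdh and Actb among them, had a median of 0.007 in Con-Pf against Con, and of 0.01 without the 2 arrays. Their mean was -0.06 on Con 3 and -0.12 on Con 5.

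The spread between animals was widest in Con in most of the genes. The median SD of the 67 genes was 0.25 in Con, 0.09 in Nic and 0.11 in Con-Pf, where that of all probe sets was 0.14, 0.09 and 0.10. The SD in Con exceeded that of both other groups in 59 of the 67 genes and in 63.1% of all probe sets. With the 2 low arrays left out the median SD in Con was 0.15 (0.11 over all probe sets) and it exceeded both other groups in 45 genes (44.7% of all probe sets). Pooled within groups, the SD was smallest for Rpl4, Rps4x, Rps20, Rpl27 and Rpl11. It was largest for Rpl13, Rps21, Rpl36a, Rpl24 and Rps28.

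Rpl13 went against the rest. It ranged from 10.18 to 10.45 in Con, from 9.81 to 10.81 in Nic and from 9.63 to 10.88 in Con-Pf, with an SD of 0.11, 0.33 and 0.35. Its 2 highest values were Con-Pf 1 and Nic 1 and its 2 lowest Con-Pf 7 and Nic 5. Its 6 other probe sets, examined after this was seen, did the opposite, with SDs of 0.34 to 0.36 in Con and of no more than 0.08 in Nic and in Con-Pf. Their log2 fold changes in Con-Pf against Con were 0.14 to 0.18, where the chosen probe set gave -0.07. The values printed for Rpl13 are therefore uncertain as a measure of its transcript.

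This is a general limit of the family, since ribosomal protein genes have many processed copies in the genome that share probes with the parent gene. Of the 68 genes 53 had more than 1 probe set, up to 21 for Rpl21, and 8 probe sets held exactly the values of another of the same gene on all arrays. Over the 178 other probe sets that passed the filter, Con 3 and Con 5 both lay below the rest of Con in 173, 177 were higher in Con-Pf than in Con, with a median log2 fold change of 0.11, and none was called. It was 0.007 when Con 3 and Con 5 were left out.

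The genes around the ribosome showed which neighbours shared the pattern of the Con arrays. In all of these lists 0 genes were called in limma in any of the 3 comparisons. Of genes with a known 5′ TOP tract that are not among the members, 18 were measured. Their median was 0.08 in Con-Pf against Con and 0.01 without Con 3 and Con 5. The list shares Eef1a1, Eef1b2, Eef1d, Eef1g and Eef2 with the elongation factors below. Fau, which encodes a small subunit protein fused to a ubiquitin-like one, differed by 0.20, Btf3, a subunit of the nascent polypeptide-associated complex, by 0.20 and Tpt1, the translationally controlled tumour protein, by 0.14. The mean of the list was -0.19 on Con 3 and -0.24 on Con 5.

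The lists of initiation and elongation factors moved less. The 31 initiation factors had a median of 0.02 in Con-Pf against Con, and the 16 elongation and termination factors 0.02, which were 0.01 and 0.007 when Con 3 and Con 5 were left out. Eef1a1 and Eef2, which carry the central steps of elongation, differed by 0.007 and -0.05, while Eef1b2 and Eef1d, subunits of the exchange factor of Eef1a1, differed by 0.16 and 0.13. On Con 5 the means of the initiation and elongation lists were -0.09 and -0.04, against -0.46 for the ribosomal proteins. On Con 3 they were -0.07 and -0.10, the latter the lowest of the 25 arrays, against -0.35.

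The 44 genes of ribosome biogenesis had a median of 0.05, and of 0.02 without the 2 arrays. Sbds, which frees the large subunit for use and is mutated in Shwachman-Diamond syndrome, differed by 0.16 ± 0.04 (adjusted p = 0.0507 in limma) and by 0.13 without Con 3 and Con 5. Nhp2, a protein of the snoRNPs that modify ribosomal RNA, differed by 0.21 (adjusted p = 0.0852 in limma). The 10 subunits and factors of RNA polymerase I had a median of 0.04, with Polr1d at 0.18 and Polr1a at -0.12, and the 29 genes of the mTOR pathway had a median of -0.003, with Rheb at 0.17 and Ddit4, an inhibitor of mTOR, at -0.18. None of these passed. Without the 2 arrays the median was 0.03 for RNA polymerase I and -0.01 for the mTOR pathway.

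The nearest pattern was found in mitochondria. The 68 mitochondrial ribosomal protein genes had a median of 0.13 in Con-Pf against Con and of 0.15 in Nic against Con, and the 70 subunits of oxidative phosphorylation 0.14 and 0.13. The values in Con-Pf against Con were 0.04 and 0.02 when Con 3 and Con 5 were left out, and those in Nic against Con 0.06 and 0.04. The mean of the mitochondrial ribosomal proteins was -0.27 on Con 3 and -0.38 on Con 5, and that of oxidative phosphorylation -0.31 and -0.42. The low values on the 2 arrays thus also occurred in other groups of genes.

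**Figure D5:**
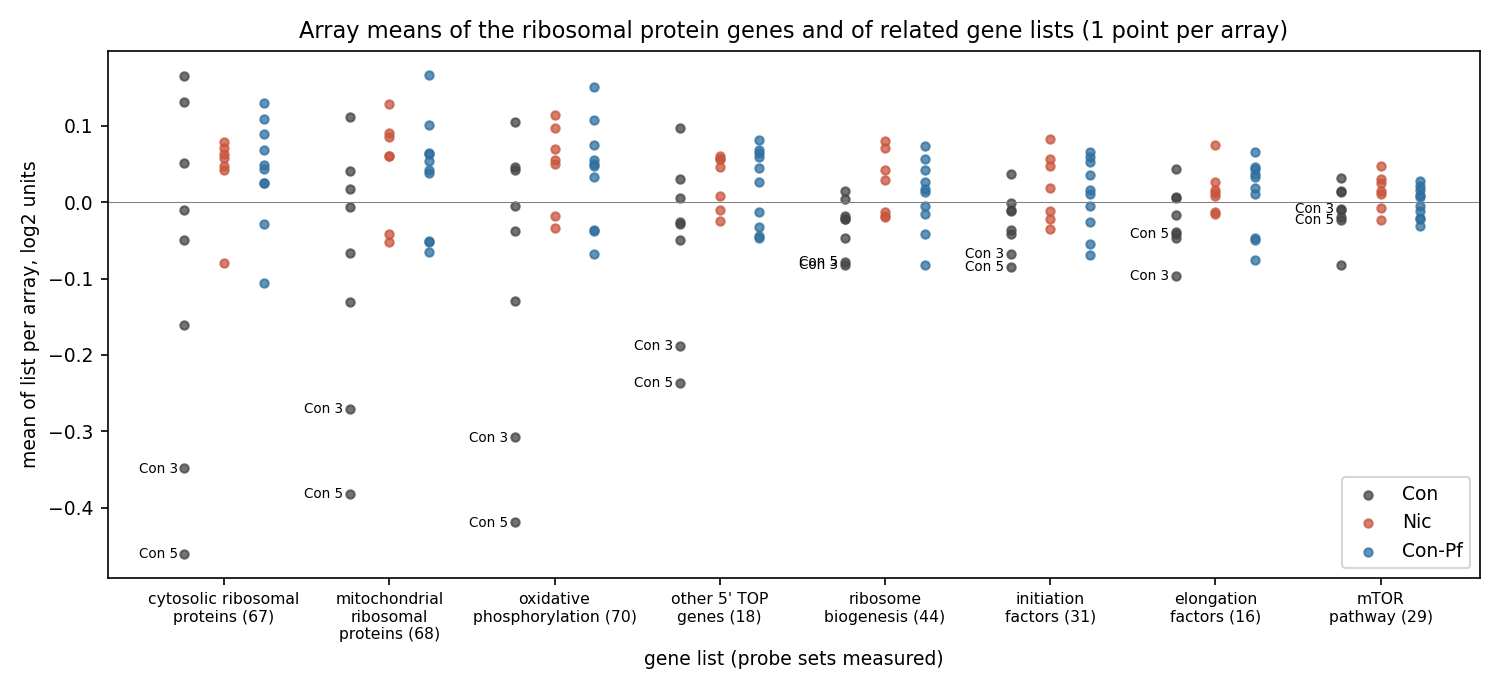
Mean of 8 gene lists on each array in log2 units relative to each gene's mean over the 25 arrays (vertical axis), with 1 point per array, coloured by group, and the number of probe sets measured under each list (horizontal axis). Con 3 and Con 5 lie far below the other arrays for cytosolic ribosomal proteins, mitochondrial ribosomal proteins, oxidative phosphorylation and other 5′ TOP genes, and nearer to them for ribosome biogenesis, initiation factors, elongation factors and the mTOR pathway.

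Markers of other cells differed on the same 2 arrays. Of the 10 astrocyte markers 9 were measured, and their mean was 0.15 on both Con 3 and Con 5, where the group ranges were -0.14 to 0.15 in Con, -0.12 to 0.04 in Nic and -0.08 to 0.15 in Con-Pf. Of the 10 microglia markers 9 were measured, with -0.15 on Con 3 and -0.24 on Con 5 and ranges of -0.24 to 0.17, -0.05 to 0.06 and -0.04 to 0.07. Of the 10 oligodendrocyte markers 8 were measured, with -0.09 on Con 3 and 0.07 on Con 5, and of the 10 endothelial markers 9, with 0.05 and 0.14. Of the choroid plexus and cortical excitatory neuron markers only 3 of 10 each passed the filter. Their means ranged from -0.86 to 2.32 and from -0.33 to 0.80 in Con, with Con 3 at -0.86 and -0.33 and Con 5 at -0.66 and 0.80. The part of cell composition in the ribosomal protein values was not tested.

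The log2 fold changes of genes with and without a pyrimidine tract at the annotated start base itself covered much the same range. Some of those without, among them Rps21, Rps28, Rpl38 and Rpl4, have a tract a few bases away, so genes lacking any tract were not compared. The 22 tested genes with a tract at the annotated start had a median log2 fold change of 0.14 in Con-Pf against Con, with a range of 0.03 to 0.23, and the 35 with a sequence but no tract at that base 0.13, with a range of -0.07 to 0.27. These medians were 0.03 and 0.02 when Con 3 and Con 5 were left out. Of the sequences shown above, Rpl39 begins with a tract and Rpl18 lacks one, and their log2 fold changes were 0.23 and 0.24.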

How the data were processed

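The authors hybridised striatal RNA of single rats to Affymetrix rat gene 1.0st arrays and deposited the log2 values of 25 arrays. These were made by RMA (background correction, quantile normalization, then a summary of each probe set). Affymetrix Expression Console 1.1 is named in the submitters' notes on processing. The authors had removed 2 Con arrays and 1 Nic array. RMA draws all arrays to 1 distribution, so a shift of most genes at once would not be seen. The brighter part of the probe sets, by mean over all arrays (threshold 6.97), was kept, 14607 of 29214. limma 3.58.1 (R 4.3.3) fitted 1 model over the 3 groups, with Benjamini-Hochberg adjustment over all probe sets kept (threshold 0.05). Tested on simulated data for Con-Pf against Con (14607 probe sets), it recovered 60% of planted log2 changes of 0.25 and 99% of 0.5 and made 7 false calls. The changes were planted in random probe sets, with independent noise and the same SD in every group. The ribosomal protein genes moved together, and their median pooled SD was 0.17 against 0.12 over all probe sets. The recovered shares therefore do not apply to these genes. Precision is limited by the number of arrays.

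Genes were named by rule: the 8 smallest p per comparison, textbook roles, the 5 largest and 5 smallest SDs and up to 4 per comparison list, with further members added after their values were seen. Members and lists were chosen with earlier results of these data known. Samples were grouped by title. Replicate numbers were not used to pair animals, and whether they do pair them is not known. The correlation of deviations of same-numbered arrays ran from -0.36 to 0.34, and within Con-Pf against Con from 0.02 to 0.18. Alternatives covered t-tests with pooled and unequal variances, other limma settings, filters, normalization and the mean of all probe sets of a gene. They also covered Con-Pf 9 and 10, Con 3 and Con 5, and each array in turn. Promoters (250 bases before to 50 after the start) were matched to 58 genes. Figures used Python 3.11.15 and matplotlib 3.10.9.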

Additional observations from a re-analysis of the deposited data

Results flagged for a closer look

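Of 114 gene and group combinations tested for an array far from the rest of its group, 13 stood out. Chance flags about 1 in 20 of independent groups, but the genes move together, were partly named for their spread, and 8 come from Con-Pf 8 and 4 from Nic 4, so the 13 cannot be read against that rate. In 8 of them Con-Pf 8 was the lowest Con-Pf array. Its value was 12.3776 for Rpl19 (next lowest 12.5596), 8.8622 for Rpl22, 11.7575 for Rpl36a (next lowest 12.2854), 11.032 for Rpl38, 11.9419 for Rpl39, 10.2195 for Rps18, 9.9331 for Rps21 and 11.0144 for Rps3. In 4 of them Nic 4 was the lowest Nic array, at 11.3282 for Rpl13a, 13.0162 for Rpl32, 11.624 for Rps6 and -0.08 for the mean of the 67 genes, where the next lowest Nic array stood at 0.0425. Nic 1 was the highest Nic array for Rps21, at 10.5507 against 10.2749 for the next. Leaving out Con-Pf 8 raised the genes at an unadjusted p under 0.05 in Con-Pf against Con from 24 to 33 (22% to 24.6% of all probe sets). The genes higher in Con-Pf than in Nic rose from 35 to 48, with no call in limma. The share of all probe sets higher there went from 44.1% to 43.3%.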

How the results depend on the processing

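In all alternatives but 1 no gene was called in any comparison. Without Con 7, 1 of the 67 genes (Rpl18) was called in Con-Pf against Con, as were 480 of all 14607 probe sets. Leaving out each array in turn thus gave 0 to 1 of the 67 genes called there and 0 in the other comparisons. The median log2 fold change ran from 0.08 to 0.17 in Con-Pf against Con, from 0.07 to 0.16 in Nic against Con and from -0.02 to 0.01 in Con-Pf against Nic as each array was left out, with 60 to 65, 63 to 67 and 23 to 48 genes higher. The lowest count of the last, 23, came without Nic 4, and centring each array on its median also left 23 genes higher there (median -0.01). Centring took the share of all probe sets higher in that comparison from 44.1% to 33%. Without Con 3 and Con 5, 43 genes were higher in Nic than in Con. The genes at an unadjusted p under 0.05 numbered 24 and 11 against Con in limma, which pools the spread of the 3 groups. A t-test gave 6 and 2 with the variance pooled over the groups compared, and 2 and 2 with unequal variances. For the t-tests the same share over all probe sets was not counted. Array weights gave medians of 0.10 and 0.08 against Con, and Con-Pf 9 and 10 counted as Con gave 0.11 and 0.10. The replicate block over replicates 1 to 7 left 0 genes called and medians of 0.16, 0.13 and 0.02, the same as those replicates without the block. Of the values of single named genes, 4430 kept their side of the threshold and 1 passed it. The small number of arrays limits what can be seen: median standard errors were near 0.08, so differences of the size found here lay close to their error, and absent calls do not show that levels were equal.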
